A study of Mus musculus with 4 samples.

Results

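Myh6, Myh7 and Tnnt2 encode parts of the sarcomere of heart muscle. They were taken by symbol from the table that the authors deposited, where they are 3 of 1593 genes. The RNA came from 46C, a line of mouse embryonic stem cells with a fluorescent reporter of neural differentiation. Every culture was held for 24 h in serum with PD0325901 at 1 µM, a compound that blocks the kinase MEK. The PD group (n = 2 libraries) had no further compound, and the PC group (n = 2 libraries) was also given CID755673, an inhibitor of protein kinase D, at a dose the labels do not state. The comparison asked which genes respond to CID755673 when MEK is already blocked. The labels leave unsaid whether libraries of the same group are separate cultures. Any p-value therefore reflects how far these libraries differ, which may be technical.

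The sarcomere is the contractile unit of striated muscle. In it, thick filaments of myosin pull on thin filaments of actin, and troponin and tropomyosin on the thin filament make this pull depend on calcium. Myh6 encodes the fast cardiac myosin heavy chain (alpha) and Myh7 the slow one (beta), which is also the heavy chain of slow skeletal fibres. Tnnt2 encodes cardiac troponin T, which ties the troponin complex to tropomyosin. In the mouse heart Myh7 prevails before birth and Myh6 in the adult, and all 3 transcripts are common markers of cardiomyocytes made from embryonic stem cells.

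Values are normalized reads, that is, reads divided by the authors' size factor for the library. Every listed gene had a p-value under 0.05 and a log2 fold change of 1 or more, up or down, in the authors' own test of PC against PD. The genes were thus selected on the values of PC and PD themselves, and their differences are given as a description. Reads on the listed genes ranged from 433684 to 683777 per library, and the full depth is unknown. The stem cell identity could not be checked, since only genes selected for a difference between PC and PD were listed. Of 20 embryonic stem cell markers 3 were listed, Utf1, Lin28a and Dnmt3l, all with lower values in PC, as had 61.5% of all listed genes. Their summed levels were 23343.3 and 24382.3 normalized reads in PD and 8211.1 and 7975.1 in PC. Genes outside the table, among them Pou5f1, Nanog and Sox2, are not analysed here.

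The promoter windows of the 3 genes are shown with the matches to short motifs found in them. Each window runs from 250 bases before to 50 bases after a transcription start in RefSeq (GRCm38.p6), taken as the start nearest to that of the longest APPRIS principal transcript in GENCODE M21. All 3 genes matched the RefSeq promoter table. Capitals mark matches on either strand to 3 motifs. The MCAT element, bound by TEAD factors, was searched as CATTCC. The box that places the start of transcription in many promoters was searched as TATAAA. The core motif of the zinc finger factors to which Gata6 belongs was searched as GATAA.
Myh6, chr14:54966558-54966857, minus strand: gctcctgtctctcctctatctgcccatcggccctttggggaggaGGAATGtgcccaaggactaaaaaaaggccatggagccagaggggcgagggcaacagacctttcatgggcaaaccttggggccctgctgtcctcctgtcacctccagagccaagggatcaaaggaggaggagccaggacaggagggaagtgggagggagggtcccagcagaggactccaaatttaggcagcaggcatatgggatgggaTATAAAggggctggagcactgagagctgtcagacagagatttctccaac
Myh7, chr14:54994577-54994876, minus strand: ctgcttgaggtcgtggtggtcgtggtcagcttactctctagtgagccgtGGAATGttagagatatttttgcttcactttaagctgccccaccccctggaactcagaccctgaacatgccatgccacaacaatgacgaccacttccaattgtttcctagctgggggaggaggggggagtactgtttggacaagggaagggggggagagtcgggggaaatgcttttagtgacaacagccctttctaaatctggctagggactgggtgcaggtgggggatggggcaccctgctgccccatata
Tnnt2, chr1:135836084-135836383, plus strand: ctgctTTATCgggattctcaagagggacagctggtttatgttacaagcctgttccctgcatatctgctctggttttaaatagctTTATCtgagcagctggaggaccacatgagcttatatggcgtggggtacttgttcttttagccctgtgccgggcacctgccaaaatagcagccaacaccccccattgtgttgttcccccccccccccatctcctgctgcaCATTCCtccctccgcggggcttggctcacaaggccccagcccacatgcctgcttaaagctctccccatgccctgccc
Each of the 3 windows held 1 MCAT match. Counted from the start used, at position 0, it lay at -206 to -201 in Myh6 and at -201 to -196 in Myh7. Both of these were on the strand opposite to the gene. In Tnnt2 it lay at -27 to -22. The TATA match of Myh6 lay at 1 to 6, after the start used. The GATA matches of Tnnt2 lay at -245 to -241 and at -166 to -162, on the opposite strand. The start used was 34 bases from that of the principal transcript in Myh6, 20 in Tnnt2 and 0 in Myh7. Of all 32851 promoter windows of this length in the RefSeq table, 14.7% held an MCAT match, 13.6% a TATA match and 25.4% a GATA match. The MEF2 consensus (3.19% of all windows) and the CArG box (1.63%) had no match in the printed windows. A second Myh7 start, 77 bases further into the gene, and a second Tnnt2 start, 635 bases from that of the principal transcript, had windows with no match to any of the 5 motifs. By gene, 16.6% of all 27025 genes with a window and 17.5% of the 966 listed ones held an MCAT match. Of the 6 other listed genes of the sarcomere lists described below that have a window, 2 held one, Mybpc2 and Mybph. A match is a description of the sequence only.

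Myh6 (ENSMUSG00000040752) was the most abundant of the 3. It stood at 534.3 and 429.8 normalized reads in PD replicates 1 and 2, and at 233.6 and 232.0 in PC replicates 1 and 2. Both PC libraries lay below both PD libraries, and the PC libraries were nearly equal. The group means were 482.1 ± 73.9 in PD and 232.8 ± 1.17 in PC (SD, n = 2 each), so that PC held 48.3% of the PD level. The log2 change was -1.04 (SE 0.15), close to the fold limit of the table: 73 listed genes had an absolute change no larger than that of Myh6, down to 1.00003 for 1700067K01Rik.

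Myh7 (ENSMUSG00000053093), the slow heavy chain, had 257.9 and 174.1 normalized reads in PD, against 63.8 and 54.7 in PC. The groups did not overlap, and the lower PD library was still well above both PC libraries. The means were 216.0 ± 59.3 in PD and 59.3 ± 6.41 in PC (SD, n = 2 each), 27.4% of the PD level. Its log2 change of -1.83 (SE 0.25) took position 332 among the 980 listed genes with lower values in PC, where Myh6 took position 945.

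Tnnt2 (ENSMUSG00000026414), cardiac troponin T, was near the low end of the table, at position 1374 of 1593 by mean level. It had 20 and 24 reads in PD, against 8 and 6 in PC, or 19.4 and 22.0 against 6.63 and 7.14 normalized reads. The libraries of each group were close to each other and the groups did not overlap. Counting error alone was wide here: the exact 95% Poisson interval of PD replicate 1 ran from 11.8 to 29.9 normalized reads and that of PC replicate 2 from 2.62 to 15.5, so these intervals overlapped. The means were 20.7 ± 1.84 in PD and 6.88 ± 0.36 in PC (SD, n = 2 each), 33.3% of the PD level, with a log2 change of -1.46 (SE 0.38). In the authors' deposited table its p-value was 0.0388, near the limit of 0.05; the largest listed p was 0.0498, for AC112265.1.

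**Figure D1:**
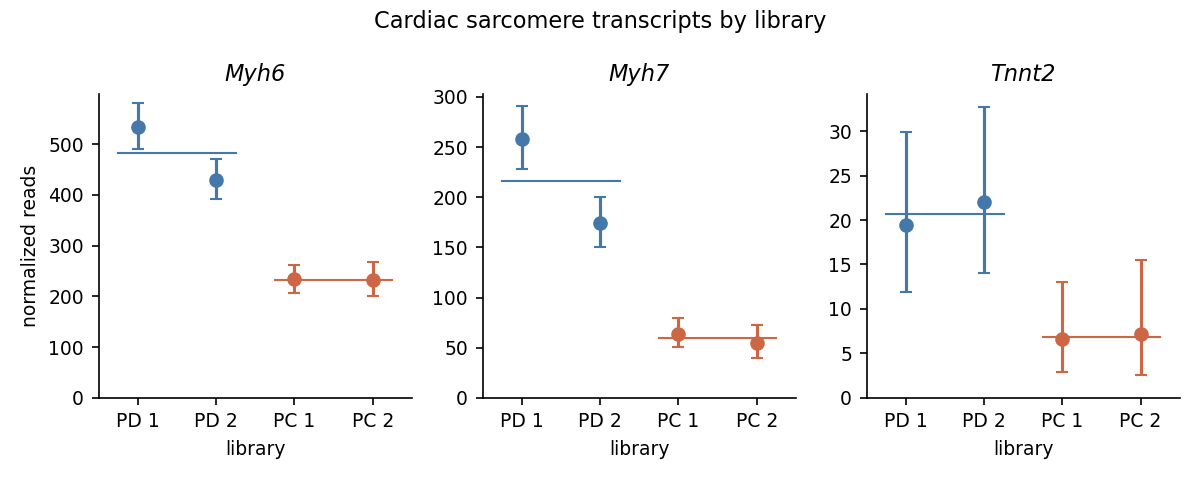
Normalized reads of Myh6, Myh7 and Tnnt2 (vertical axes from 0, a separate scale per gene) in each of the 4 libraries. Points are libraries, bars exact 95% Poisson intervals that cover counting error only, and lines group means; PC libraries lie below PD libraries for each gene, with 233.6 and 232.0 against 534.3 and 429.8 for Myh6.

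All 3 genes were lower in PC with no overlap of groups, but 99.7% of the listed genes had groups that did not overlap and 61.5% were lower, so nothing is read from this count. By limma, with Benjamini-Hochberg adjustment of the p-values over the 31432 genes that the authors had tested, Myh7 passed (adjusted p = 0.0475), Myh6 was just past the threshold of 0.05 (adjusted p = 0.0532) and Tnnt2 was far from it (adjusted p = 0.314). The same fit called 31.1% of the listed genes, 19.8% as lower. Myh7 lost its call when any library was left out, and the number of these 3 genes called ranged from 0 to 2 over the alternative settings. In the authors' deposited table the false discovery rate was 1.77e-07 for Myh6, 2.61e-08 for Myh7 and 0.159 for Tnnt2, and 70.2% of the listed genes had a rate under 0.05. In RNA from a whole culture, fewer cells that hold these transcripts and less transcript per cell cannot be told apart.

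**Figure D2:**
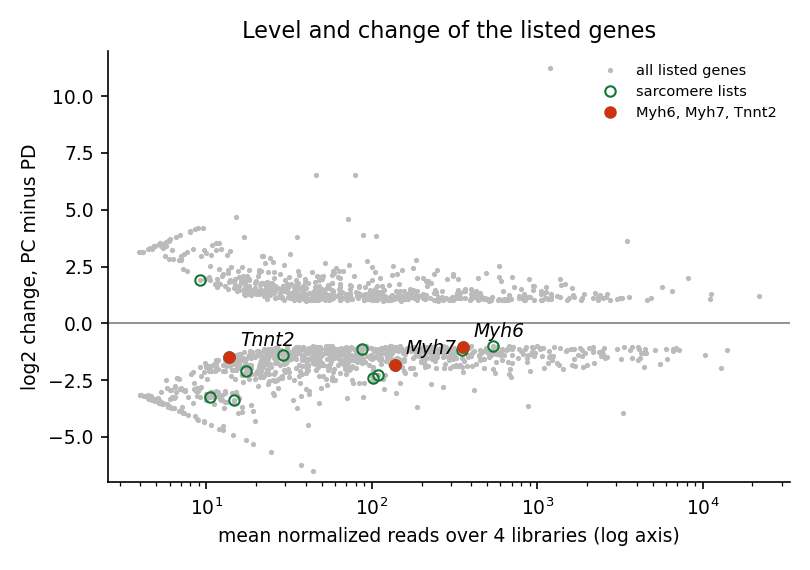
Log2 change, PC minus PD, against mean normalized reads (log axis) for the 1593 listed genes. Grey points are all listed genes, open circles the listed sarcomere genes and filled circles Myh6, Myh7 and Tnnt2; the empty band around 0 is the fold limit of the table, and Myh6 at -1.04 lies at its edge.

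Levels of different genes were compared per length of transcript, using the longest APPRIS principal transcript in GENCODE M21: 6113 bases in 39 exons for Myh6, 6230 bases in 41 exons for Myh7 and 1200 bases in 16 exons for Tnnt2. Per kilobase, Myh6 stood at 78.9 ± 12.1 normalized reads in PD, Myh7 at 34.7 ± 9.51 and Tnnt2 at 17.2 ± 1.53 (SD, n = 2 each). In PC the levels per kilobase were 38.1 ± 0.19, 9.51 ± 1.03 and 5.74 ± 0.30. The order Myh6, Myh7, Tnnt2 held in every library. In PD the nearest libraries of Myh7 and Tnnt2 were 27.9 and 18.3 normalized reads per kilobase, with exact 95% Poisson intervals of 24.1 to 32.2 and 11.7 to 27.3. In PC they were 8.78 and 5.95, with intervals of 6.43 to 11.7 and 2.18 to 12.9. These intervals of Myh7 and Tnnt2 overlapped in both groups.

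The balance between the cardiac heavy chains was read from the recovered reads within each library, which does not depend on size factors. Myh7 made up 266 of 817 Myh6 and Myh7 reads in PD replicate 1, or 32.6% (exact Clopper-Pearson 95% interval 29.4 to 35.9%). In PD replicate 2 it made up 190 of 659, or 28.8% (25.4 to 32.5%). In PC replicate 1 the share was 77 of 359, or 21.4% (17.3 to 26.1%), and in PC replicate 2 it was 46 of 241, or 19.1% (14.3 to 24.6%). Myh7 thus held a smaller part of the cardiac myosin reads in both PC libraries than in either PD library. The intervals of PD replicate 2 and PC replicate 1 overlapped, and both genes had been selected on PC against PD. The means were 30.7 ± 2.63% in PD and 20.3 ± 1.67% in PC (SD, n = 2 each), a difference of -10.4 percentage points. The two-sided exact permutation test over the 4 libraries gave p = 0.333, the smallest it can give with 2 libraries against 2, so this design cannot reach 0.05. The Tnnt2 share of the reads of all 3 genes was 2.39% and 3.51% in PD and 2.18% and 2.43% in PC. These groups overlapped (two-sided exact permutation test, p = 0.667), and each library's interval was wide, as in PC replicate 2 (0.897 to 5.21%). Adjusted over these 2 shares by Benjamini-Hochberg, both p-values were 0.667. These intervals cover counting error only.

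**Figure D3:**
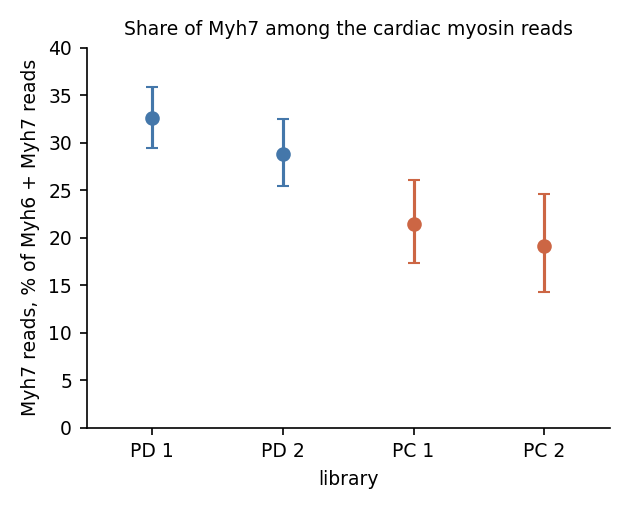
Share of Myh7 among Myh6 and Myh7 reads (percent, axis from 0) in each of the 4 libraries. Points are libraries and bars exact Clopper-Pearson 95% intervals; the PC libraries, at 21.4% and 19.1%, lie below the PD libraries, at 32.6% and 28.8%.

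The share depends on how reads were assigned between these paralogs, a step that no source used here describes. Myh6 and Myh7 are neighbours on the minus strand of chromosome 14 with 0 protein-coding genes between them in GENCODE M21. Their coding sequences, aligned globally, were identical at 5320 of 5802 positions without a gap, or 91.7%, and the longest identical run was 245 bases. Of the 50-base stretches of the Myh6 transcript, 22.6% occurred exactly in the Myh7 transcript, and 22.2% the other way round; for 100-base stretches the figures were 11.4% and 11.2%. A read from such a stretch fits both genes, so the single values of Myh6 and Myh7 are uncertain. How far was not tested, and these shares of exact matches do not measure it. Outside this pair, shared 50-base stretches made up no more than 0.165% of either transcript (Myh1 and Myh4), and Tnnt2 shared none with another gene's transcripts. Among stretches of 60 coding bases without a gap in the alignment, the least alike shows what can tell the genes apart. It spans bases 3226 to 3285 of Myh6 and 3220 to 3279 of Myh7, and capitals mark the 27 differing bases.
Myh6: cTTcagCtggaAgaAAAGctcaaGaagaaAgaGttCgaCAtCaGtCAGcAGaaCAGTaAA
Myh7: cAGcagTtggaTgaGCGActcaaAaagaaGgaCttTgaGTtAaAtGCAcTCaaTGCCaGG

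**Figure D4:**
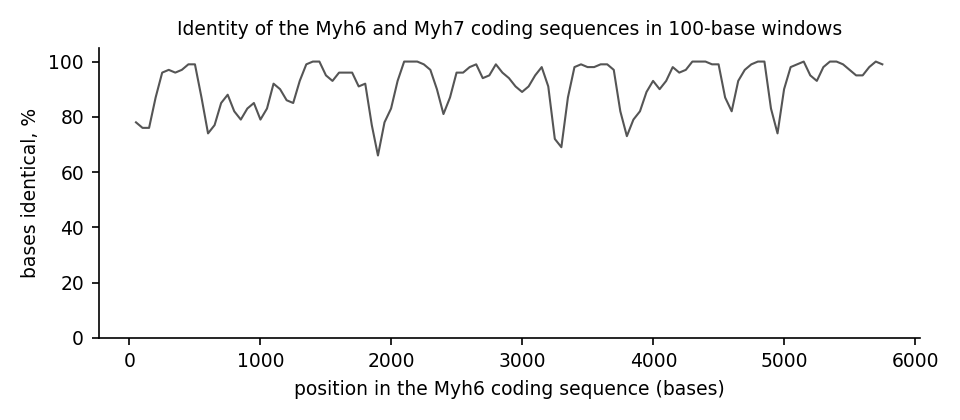
Percent of identical bases between the Myh6 and Myh7 coding sequences in 100-base windows (vertical axis from 0) along the Myh6 coding sequence in bases. The line stays near 100% over long stretches and is lowest, at 66%, around coding base 1898, with gap positions counted as different.

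Antisense transcripts add to this where counting ignored strand, a setting that no source used here states. There, reads of a gene and of its antisense partner cannot be told apart. In GENCODE M21 the antisense genes Mhrt, Gm29015 and Gm31251 share 5.62%, 1.65% and 6.07% of the exon bases of Myh7, and Gm49130 shares 1.69% of those of Myh6. Mhrt is a long non-coding RNA known from the heart. The microRNA genes Mir208a and Mir208b lie inside Myh6 and Myh7 and share 0 exon bases with them. Tnnt2, on the plus strand of chromosome 1, shares exon bases with no other annotated gene. The nearest listed protein-coding genes beside the myosin pair were Slc7a7, with 27 unlisted ones between and a log2 change of -1.74, and Rec8, with 20 between and 1.99. Beside Tnnt2 they were Ptpn7, with 13 between and -1.08, and Cacna1s, with 4 between and -1.28.

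Of 66 genes in 3 sarcomere lists (thick filament, thin filament, and titin with Z-disc and M-band), 13 were listed, 12 with lower and 1 with higher values in PC. By limma with Benjamini-Hochberg adjustment 2 of the 13 fell, Myh7 and Mybpc2, and 0 rose. Over all listed genes 61.5% were lower, 19.8% were called as lower and 11.2% as higher, so the share called among the 13 was not above that of the table. The 13 were picked by the same selection as the whole table. Their median log2 change was -1.46, that of Tnnt2, which took position 539 among the 980 listed genes with lower values in PC. The median over all listed genes, -1.17, takes in many genes with higher values and does not give a typical fall. A larger fall of the 13 is thus not read from these medians. Without Myh6, Myh7 and Tnnt2 the other 10 summed to 1906.4 and 1690.9 normalized reads in PD and 816.1 and 669.7 in PC.

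Among thick filament genes, 6 of 20 were listed. Mybpc2, the fast skeletal myosin-binding protein C, fell from 484.5 ± 30.7 to 215.1 ± 6.36 normalized reads (SD, n = 2 each), a log2 change of -1.17 (SE 0.12). Mybpc3, the cardiac myosin-binding protein C, was at 162.9 and 196.1 in PD and at 48.1 and 27.4 in PC. It was just past the threshold (limma, Benjamini-Hochberg adjusted p = 0.0542) and was not called. The embryonic heavy chain gene Myh3 was at 127.0 and 108.1 in PD and at 82.0 and 33.3 in PC, with PC libraries far apart. The member with higher values was Mybph, a myosin-binding protein H, at 2.9 and 3.7 in PD and 15.7 and 14.3 in PC. Among other myosins, Myo7a, an unconventional myosin of sensory hair cells, was the 1 listed gene of 30, at 328.1 ± 31.1 in PD and 153.0 ± 26.2 in PC, and was not called.

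Of 20 thin filament genes 4 were listed, all lower and 0 called. Over all listed genes 61.5% were lower and 19.8% were called as lower, so nothing is read from these counts. Besides Tnnt2, the thin filament genes listed were the nebulin gene Neb, a ruler of thin filament length in skeletal muscle, and the fast skeletal troponins Tnnt3 and Tnnc2. Neb stood at 825.2 and 626.9 normalized reads in PD and at 381.1 and 334.3 in PC. Tnnt3, the troponin T of fast skeletal fibres, was at 30.1 and 26.6 in PD and at 9.1 and 3.6 in PC. Tnnc2, a calcium-binding troponin C, was at 22.3 and 30.2 in PD, at 0 reads in PC replicate 1 and at 5.9 normalized reads in PC replicate 2. The listed troponins thus included both the cardiac and the fast skeletal troponin T.

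Of 26 genes of titin, the Z-disc and the M-band 3 were listed, all lower and 0 called. Here too nothing is read from the counts, since 61.5% of all listed genes were lower and 19.8% were called as lower. Myot, a Z-disc protein, was at 47.5 and 38.5 normalized reads in PD against 15.7 and 15.5 in PC, and the muscle LIM protein gene Csrp3 at 18.4 and 20.2 against 0 reads in PC replicate 1 and 3.6 normalized reads in PC replicate 2.

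**Figure D5:**
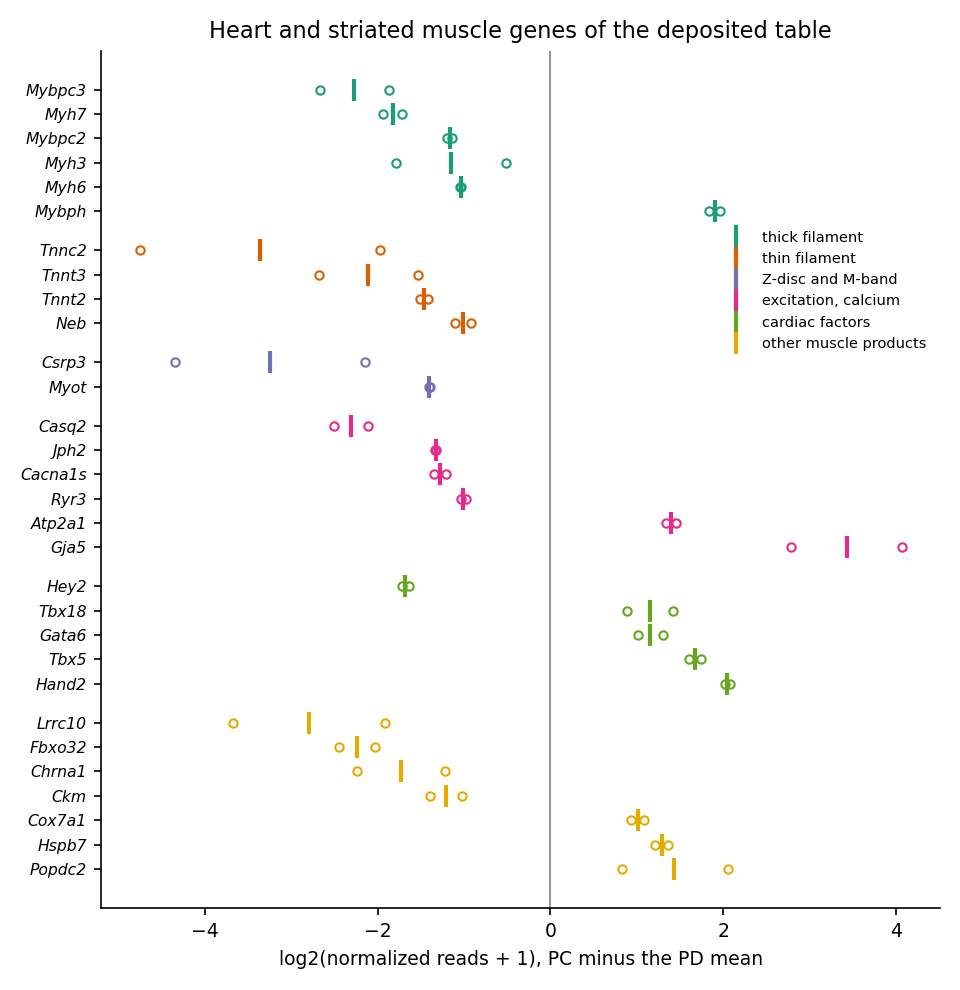
Differences of log2(normalized reads + 1) from the PD mean for 30 listed genes of 6 heart and striated muscle lists (horizontal axis, log2 units). Open circles are the 2 PC libraries and ticks their mean, coloured by list; 11 of the 12 sarcomere genes shown lie left of 0, and 4 of the 5 cardiac transcription factors lie right of it.

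Of 28 genes of excitation and calcium handling, 6 were listed, 4 lower and 2 higher, with a median log2 change of -1.14, also with Gja5 at its bound. Among all listed genes 61.5% were lower and 19.8% were called as lower, with a median of -1.17, so nothing is read from these counts. Casq2, the calcium store protein of cardiac sarcoplasmic reticulum, fell from 76.6 and 83.4 normalized reads in PD to 13.3 and 17.8 in PC. By limma with Benjamini-Hochberg adjustment its adjusted p was 0.0491, just under the threshold of 0.05. The ryanodine receptor gene Ryr3, a calcium release channel, fell from 528.5 and 539.8 to 260.1 and 270.0 (same test, adjusted p = 0.0224). The calcium channel gene Cacna1s and the junctophilin gene Jph2 had lower values and were not called. Atp2a1, the calcium pump of fast skeletal muscle, had higher values, at 21.3 and 16.5 in PD and 53.0 and 48.8 in PC, and was not called. The connexin gene Gja5, with 0 reads in both PD libraries, had 15.7 and 5.9 normalized reads in PC and was not called. Against a floor of 3 reads per PD library it was at least 3.83-fold higher in PC, a bound of 5.56-fold without PC replicate 2 and of 2.10-fold without PC replicate 1.

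Transcription factors of the heart formed a further list. Of 22, 5 were listed, 4 higher and 1 lower in PC, with a median log2 change of 1.16. Limma called 1 of them as higher and 1 as lower. Among all listed genes 61.5% were lower, 11.2% were called as higher and 19.8% as lower, so nothing is read from these counts. Gata6, a factor of heart and endoderm, rose from 188.6 ± 6.19 to 423.9 ± 61.7 normalized reads, and Hey2, a Notch target of ventricular muscle, fell from 139.2 ± 10.2 to 42.8 ± 1.61 (limma, Benjamini-Hochberg adjusted p of 0.0401 for Gata6 and 0.0342 for Hey2; SD, n = 2 each). Tbx5 was at 13.6 and 19.2 in PD and 56.3 and 51.2 in PC, Hand2 at 3.9 and 8.2 against 27.3 and 26.2, and Tbx18 at 29.1 and 62.3 against 79.5 and 115.4. None of these last 3 was called.

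Of 27 other heart and striated muscle products 7 were listed, 4 lower and 3 higher. The shares among all listed genes were 61.5% lower, 19.8% called as lower and 11.2% called as higher. Fbxo32, a ubiquitin ligase of muscle wasting, fell from 302.5 and 300.6 normalized reads to 72.9 and 54.7, and Cox7a1, the muscle form of a cytochrome oxidase subunit, rose from 435.4 and 450.9 to 942.8 and 847.0 (limma, Benjamini-Hochberg adjusted p of 0.0145 for Fbxo32 and 0.0217 for Cox7a1; n = 2 each). Ckm, the muscle creatine kinase, Chrna1, a subunit of the muscle acetylcholine receptor, and the cardiac gene Lrrc10 had lower values, and Hspb7 and Popdc2 higher ones, with 0 of these 5 called. Of 10 skeletal muscle factors, 14 smooth muscle genes and 10 thyroid hormone and retinoid regulators, 0 were listed. Nkx2-5, Actc1, Tnni3, Myl7, Myod1 and Acta2 are thus not analysed here.

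Markers of other cell types were listed as well, and like every listed gene they had been selected for a difference between PC and PD. Tek and Gata6 were called and the others were not, where 31.1% of all listed genes were called and 61.5% were lower. Col3a1 (1 of 8 fibroblast markers listed, 89.2 and 113.6 normalized reads in PD, 38.9 and 48.8 in PC), Tek and Kdr (2 of 8 endothelial markers, summing to 3342.5 and 3526.6 against 1498.7 and 1334.7) and Gata3 (1 of 9 trophoblast markers, 380.1 and 384.0 against 194.7 and 133.2) were lower. Gata6 and Sox17 (2 of 10 extra-embryonic endoderm markers, 221.1 and 209.9 against 466.4 and 511.5) were higher. Of 8 blood and 6 neural progenitor markers 0 were listed. At 0 reads were Tnnc2, Csrp3 and Lrrc10 in PC replicate 1 and Gja5 in both PD libraries, and no listed marker of the other cell types was at 0. The part of these cell types in the values of Myh6, Myh7 and Tnnt2 was not tested.

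Likeness of pattern was measured as the Euclidean distance between log2 values over the 4 libraries, each gene centred on its mean, among listed genes with a mean of at least 10 normalized reads. Each of the 3 genes was compared with 1451 others. Nearest to Myh6 were 2610042L04Rik (distance 0.0125), Cd3e, Chst1, Gstm7 and Sp9. Cd3e, a chain of the T cell receptor complex, stood at 299 and 250 normalized reads in PD and 132 and 131 in PC. Nearest to Myh7 were Gm13010 (distance 0.127), Gm35963, Mc1r, Gm5039 and Kcnh8, and nearest to Tnnt2 were Dgkeos (distance 0.0514), Lefty1, Serpinb6c, Gm37139 and Vwa3b. The 3 sarcomere genes were not close to each other on this measure: Myh7 was at position 539 from Myh6 (distance 0.82), Tnnt2 at position 325 from Myh6 (0.548) and at position 244 from Myh7 (0.674). All genes compared had been selected on PC against PD, so genes with a similar log2 change lie close on this measure. Tnnt2 had only 6 to 24 reads a library, and the part of counting error in its distances was not tested.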

How the data were processed

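Per the file headers, the authors deposited 1 table with log2 values per library, group means, the log2 fold change, p-values and false discovery rates. Undoing the log and subtracting 1 gave whole multiples of 1 step per library for 100.0% of values (tolerance 0.001 reads), so reads and size factors (1.0313 and 1.0911 in PD, 1.207 and 0.8406 in PC) were recovered. Bowtie 0.12.2 and the build mm9 are named, without a role, per the submitters' processing notes. The sources used here do not give the counting tool, annotation, strand setting or test. Gene order, transcripts and promoters come from GRCm38 annotation, matched by gene ID or symbol, and no coordinates were converted.

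Here limma 3.58.1 (R 4.3.3) was fitted to log2(value + 1) of listed genes with a mean of at least 1 normalized read, with a trended prior and no replicate block, and p-values were adjusted over 31432 genes by taking unlisted genes as having larger p. It was tested on simulated data. The spread came only from selected genes. voom on the recovered reads, the count-based alternative, called 661 genes. Shares used exact tests (scipy 1.17.1), alignment Biopython 1.88. A floor of 3 reads per library was used for genes at 0.

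Same-numbered libraries did not deviate together across genes (correlation -5.8e-05), so the numbers were not taken as pairs. Within each group the libraries differed by more than sampling noise (chi-square per degree of freedom 7.03 in PD and 6.57 in PC). The members and lists were chosen with earlier results of these data known. Named genes are the 3 members, the listed genes of the muscle lists or with their family names, the 5 nearest in pattern to each member, and chromosomal neighbours. Some genes that this rule names are not reported here.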

Additional observations from a re-analysis of the deposited data

How the results depend on the processing

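Myh6, Myh7 and Tnnt2 had lower values in PC under every alternative run, but a gene whose groups do not overlap cannot reverse when a library is left out. Of the 495 calls (179 higher, 316 lower), 1 was left without a trend in the prior (1 higher, 0 lower; 1487 genes had an unadjusted p under 0.05), and the replicate block gave 1176 (435 higher, 741 lower). Of the 3 genes, main 1, the number called was 0 with a pseudocount of 0.1, without the trend and with listed-gene totals as library sizes, and 2 with a pseudocount of 5, a filter at a mean of 10, voom on recovered reads and the replicate block. Listed-gene totals, which scale by selected genes, shifted all changes by a median of 0.29, gave 317 higher calls and 304 lower, and put Myh6 at -0.74, Myh7 at -1.52 and Tnnt2 at -1.23. Tnnt2 was at -1.57 with a pseudocount of 0.1 and -1.11 with 5. With a library left out, 33 to 61 genes were called, 1 to 33 higher and 0 to 60 lower, and 0 of the 3; the lone library is then assumed to vary like the other group. The log2 changes then ran from -1.20 to -0.88 for Myh6, from -2.11 to -1.54 for Myh7 and from -1.55 to -1.37 for Tnnt2, and the difference of the Myh7 share from -12.3 to -8.56 percentage points and of the Tnnt2 share from -1.21 to -0.085. The cause of these moves was not tested. Pairing by replicate number leaves a difference of mean shares as it is by arithmetic and was no check of it. Depth limits Tnnt2 most, with 6 to 24 reads a library.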

Other observations

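The deposited annotation gives the cellular component term sarcomere to 26 listed genes, Myh6, Myh7 and Tnnt2 among them; this set was looked at after the values were seen. Of these 24 had lower and 2 higher values in PC, and limma with Benjamini-Hochberg adjustment called 7 as lower and 0 as higher. Their median log2 change was -1.53. The median over all listed genes, -1.17, takes in a larger share of genes with higher values, so a larger fall is not read from it. Over all listed genes 61.5% were lower, 19.8% were called as lower and 11.2% as higher. The highest levels were those of 3 genes that were called: Jup, the junction protein plakoglobin, was at 9256 normalized reads in PD and 4015 in PC (means of 2 libraries), Dusp27 at 6205 and 2136, and Synm, an intermediate filament protein, at 2559 and 1151. Timp4, an inhibitor of matrix proteases, was at 19.2 and 2.38 and was not called. The higher ones were Atp2a1 and Mybph.

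The deposited pathway Cardiac muscle contraction holds 8 listed genes, 5 lower (Myh6, Myh7, Tnnt2, Cacna1s and Cox7b2) and 3 higher. Limma called 1 of the 8 as lower and 2 as higher. Over all listed genes 61.5% were lower, 19.8% were called as lower and 11.2% as higher, so nothing is read from these counts. Of the 3 higher pathway genes Cox7a1 rose, as given above. Cacna2d3, a calcium channel subunit, at means of 6.55 normalized reads in PD and 36.1 in PC, was not called.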
